A study of Hordeum vulgare with 12 samples.

Results

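EDTS5 (HORVU4Hr1G071300) is a barley gene for an aminotransferase, and its level was followed in leaves of 2 barley accessions with and without drought. It is 1 gene of the 30157 in the deposited gene table, found there by its identifier, and it was singled out because it stood high in drought leaves of the accession BCS8. That difference, and every other EDTS5 value that sets BCS8 libraries against others, is therefore given as a description with no test, while other genes are tested in that comparison. The table places the gene on chromosome 4H, from 580177191 to 580181119 on the minus strand, a span of 3929 bases, and calls it protein coding. The genome build of these coordinates is not given in the sources used here. The gene carries the orthology number K10206, LL-diaminopimelate aminotransferase, and its description was projected from an Arabidopsis thaliana gene, AT2G13810.

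LL-diaminopimelate aminotransferase belongs to the plant route by which aspartate is turned into lysine in the chloroplast, and it uses pyridoxal phosphate as its cofactor. AT2G13810 is ALD1, whose product in Arabidopsis removes the amino group of lysine in the first step towards pipecolic acid, a compound needed there for systemic acquired resistance, the defence state that spreads from an infected leaf to the rest of the plant. The related Arabidopsis enzyme AGD2 serves lysine synthesis itself. Which of these reactions the barley protein carries out cannot be read from RNA levels.

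The study compared leaf tissue of the barley (Hordeum vulgare) accessions BCS8 and BCS24, each as an untreated control (ck in the labels) and under drought. Each of the 4 groups held 3 libraries. The labels give no plant age, drought length or statement of whether the libraries came from separate plants, so p-values measure the spread between these libraries, which may be technical in part. RNA was selected by its poly(A) tail and copied into strand-marked libraries.

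Depth ran from 49553836 to 61212440 counts per library. Of 50 genes listed as leaf markers (Rubisco small subunit and photosystem and light-harvesting proteins), 23 had over 100 FPKM, that is fragments per kilobase of transcript scaled to library size, in each of the 12 libraries. Replicates of a group correlated at 0.919 to 0.982 (Pearson's r across genes, on log2 CPM). The lowest 2 of these values, 0.919 and 0.94, set BCS8 drought replicate 3 against the other drought libraries of BCS8. EDTS5 values that rest on that library are given with and without it. Genes annotated as ribosomal RNA took 0.202% to 2.22% of the counts.

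EDTS5 had 256, 412 and 615 counts in the BCS8 control libraries and 7874, 6465 and 1450 in the BCS8 drought libraries. In BCS24 it had 265, 184 and 235 counts in control and 205, 221 and 241 under drought. The gene was seen in each of the 12 libraries, and the BCS8 drought libraries stood above the others. As CPM, the counts scaled to library size, here with edgeR's TMM factors, the level was 4.94, 6.52 and 10.9 in BCS8 control and 151, 127 and 24.7 in BCS8 drought. In BCS24 it was 4.42, 3.32 and 4.65 CPM in control and 3.86, 4.27 and 4.36 CPM under drought.

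The drought libraries of BCS8 did not overlap with its controls, although replicate 3 lay much closer to them than the other two did. The BCS24 groups overlapped. The mean level was 101 ± 66.9 CPM (SD, n = 3) in BCS8 drought, 7.45 ± 3.09 in BCS8 control, 4.16 ± 0.267 in BCS24 drought and 4.13 ± 0.711 in BCS24 control. In that order of levels, the BCS24 groups did not differ beyond their spread. The lowest BCS8 control library, at 4.94 CPM, lay just above the highest BCS24 library, at 4.65 CPM.

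**Figure D1:**
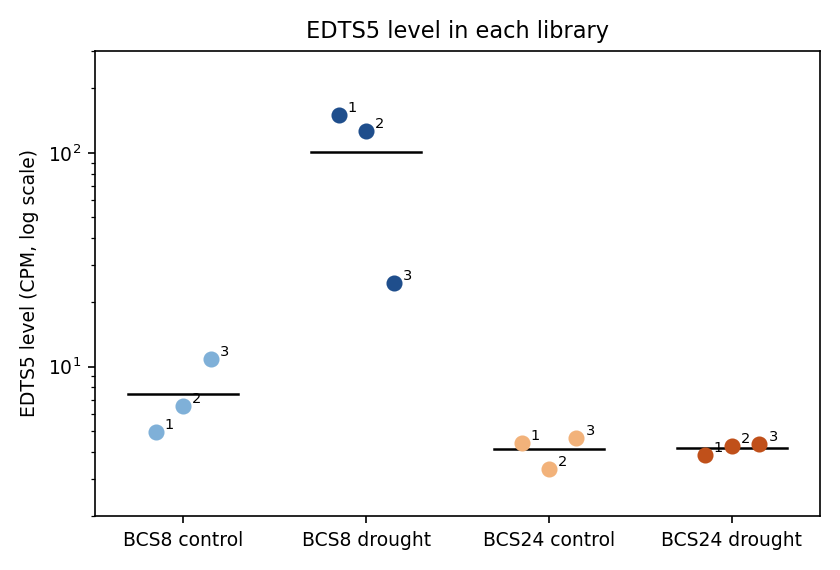
EDTS5 level in each library, in CPM on a log axis, for the 4 groups, with the replicate number beside each point and the arithmetic mean of each group as a line. The BCS8 drought libraries lie at 151, 127 and 24.7 CPM, while the other 9 libraries lie between 3.32 and 10.9 CPM.

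Among all genes the place of EDTS5 shifted with the group. Ranked by FPKM within a library, it stood at 1463 and 1858 from the top in BCS8 drought replicates 1 and 2 and at 7344 in replicate 3. Across the 3 BCS8 controls its rank was 14231, 13217 and 11295, and across the 6 BCS24 libraries it ranged from 14489 to 15725. It was thus a gene of low level in control leaves of both accessions.

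In BCS8, EDTS5 was 13.5-fold higher under drought than in control, a log2 difference of 3.76 ± 0.57 (SE of the edgeR fit). By size of that difference it ranked 41 from the top of the 17342 genes tested. Of those genes, 1.53% passed an adjusted p of 0.05 in this comparison, 0.998% higher and 0.536% lower under drought. Without replicate 3 of the drought group the log2 difference was 4.22, and over the leaving out of each library in turn it lay between 3.35 and 4.22. That replicate held 55.3% of the summed squared deviation of EDTS5 from its group means over the 12 libraries.

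In BCS24 the drought comparison was tested, since none of its libraries entered the comparison that first singled out the gene. The gene was still chosen with results of these data known. EDTS5 showed a log2 difference of 0.01 ± 0.53 between drought and control (edgeR quasi-likelihood test, adjusted p = 0.996 over 17342 genes). The 95% interval ran from -1.16 to 1.18, a fold change between 0.448 and 2.27. A change within that interval could not be seen in this fit. Of all genes tested, 2.65% passed the threshold in this comparison, 1.4% higher and 1.25% lower. The interval uses a spread estimated over the 4 groups together, the uneven BCS8 drought libraries included. Fitted to the 6 BCS24 libraries alone, the log2 difference was 0.01 ± 0.21, with a 95% interval from -0.48 to 0.51 (edgeR, adjusted p = 0.984).

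Between the accessions, EDTS5 was lower in BCS24 than in BCS8 by 0.85 on the log2 scale in control (-0.85 ± 0.53, 95% interval -2.02 to 0.32) and by far more under drought (-4.6 ± 0.6). The fold was 0.554 in control and 0.0413 under drought. Both are descriptions, because they use the BCS8 libraries by which the gene was chosen. Without BCS8 drought replicate 3 the drought value was -5.06. In all, 19.1% of the genes tested passed the threshold between the accessions in control and 27.4% under drought.

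The drought effect in BCS24 minus that in BCS8 was -3.75 ± 0.76 on the log2 scale for EDTS5, and -4.21 without BCS8 drought replicate 3. For this difference of effects no gene of the 17342 passed the edgeR threshold (0 calls, with 2166 at an unadjusted p under 0.05). DESeq2 called 629 genes and limma called 14 on log2(FPKM + 1) and 1 on log2(FPKM + 0.1). In bulk leaf tissue, more RNA per cell and a larger share of the cells that make it cannot be told apart.

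The share of ribosomal RNA counts in BCS8 was 0.795%, 0.997% and 0.52% in control and 1.79%, 2.22% and 0.918% in drought. The drought libraries with the highest EDTS5 levels were thus also those with the highest share in that accession. In BCS24 control, where EDTS5 was low, the share was 0.531%, 2.07% and 1.45%. The part of RNA composition in the EDTS5 values was not tested.

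The transcripts table lists 6 transcripts of EDTS5, each an annotated one, and their counts add up to the gene's count in every library. The longest, HORVU4Hr1G071300.1, spans the whole gene with 7 exons and is 2145 bases long. HORVU4Hr1G071300.2 has 5 exons and 1364 bases between 580177689 and 580180539, inside the span of the first. HORVU4Hr1G071300.10 has 6 exons and 969 bases, and HORVU4Hr1G071300.12 has 2 exons and 881 bases. HORVU4Hr1G071300.6 (7 exons, 1247 bases) and HORVU4Hr1G071300.11 (1 exon, 305 bases) had few counts. Counts are shared out among overlapping transcripts by an estimate, so the split carries an error beyond the counting error given here.

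The first transcript, HORVU4Hr1G071300.1, held 256, 409 and 593 counts in BCS8 control and 3859, 4530 and 1347 in BCS8 drought. In BCS24 it held 264, 184 and 231 counts in control and 200, 220 and 241 under drought. It was present in all 12 libraries and carried nearly all of the signal outside BCS8 drought.

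HORVU4Hr1G071300.2 had 3129, 1289 and 34 counts in BCS8 drought and 0, 0 and 11 in BCS8 control. It had 0 counts in each of the 6 BCS24 libraries, where a count of 0 allows a share of up to 1.13% to 1.63% of the gene's counts (3 counts of the library's EDTS5 total). HORVU4Hr1G071300.10 was alike in this, with 632, 406 and 58 counts in BCS8 drought, 2 counts in BCS8 control replicate 3 and 0 in the other 8 libraries. HORVU4Hr1G071300.2 and HORVU4Hr1G071300.10 were thus seen mainly where the gene was high.

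HORVU4Hr1G071300.12 had 197, 148 and 7 counts in BCS8 drought, 0, 2 and 8 in BCS8 control and at most 4 in a BCS24 library. HORVU4Hr1G071300.6 had 45, 70 and 2 counts in BCS8 drought and 0 in the other 9 libraries. The single-exon HORVU4Hr1G071300.11 had 12, 22 and 2 counts in BCS8 drought and at most 1 elsewhere. Its share of the gene's counts was 0.152%, 0.34% and 0.138% in BCS8 drought. In the other libraries where it was seen it had 1 count, so the share there, 0.163% to 0.488%, was set by the gene's total. Whether its share differed in BCS8 drought cannot be judged from so few counts. For HORVU4Hr1G071300.12 the share was 2.5%, 2.29% and 0.483% in BCS8 drought, and up to 1.95% elsewhere.

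**Figure D2:**
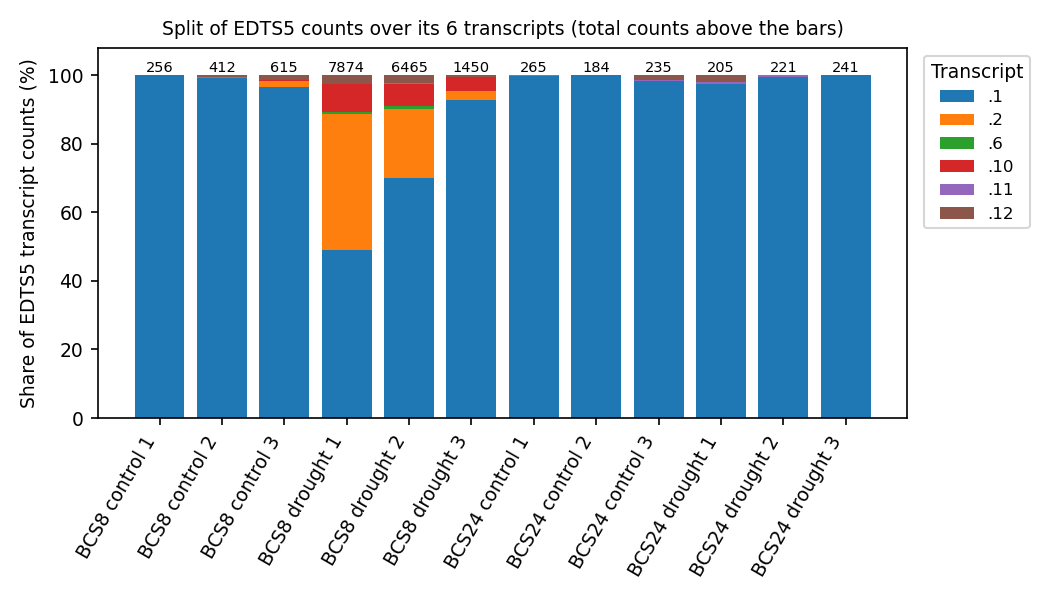
Share of the EDTS5 counts of each library given to each of its 6 transcripts, in percent, with the gene's total count above each bar. HORVU4Hr1G071300.1 fills 49% and 70.1% of the bar in BCS8 drought replicates 1 and 2, 92.9% in replicate 3 and 96.4% to 100% in the other libraries.

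By counts, HORVU4Hr1G071300.1 made up 49% of EDTS5 in BCS8 drought replicate 1 (exact 95% binomial interval 47.9% to 50.1%), 70.1% in replicate 2 (68.9% to 71.2%) and 92.9% in replicate 3 (91.5% to 94.2%). HORVU4Hr1G071300.2 made up 39.7% in replicate 1 (38.7% to 40.8%), 19.9% in replicate 2 (19.0% to 20.9%) and 2.34% in replicate 3 (1.63% to 3.26%). These intervals cover counting error only. The drought replicate with the fewest EDTS5 counts was closest to the controls in its split as well as in its level.

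As a share of FPKM, which corrects for length, HORVU4Hr1G071300.1 stood at 35.7%, 56.0% and 86.3% in BCS8 drought and at 100%, 97.7% and 93.1% in BCS8 control. The groups did not overlap, and the mean difference was -37.6 points (59.4% ± 25.5 under drought, 96.9% ± 3.49 in control, SD, n = 3 each). This too is a description, from the comparison by which the gene was chosen. In BCS24 the share was 100%, 100% and 95.8% in control and 95.1%, 99.8% and 100% under drought, and the groups overlapped. The mean difference was -0.262 points (two-sided exact permutation test, p = 0.7, n = 3 each), in a design whose smallest possible p is 0.1.

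Over both treatments the share was 98.5% ± 2.34 in BCS24 and 78.1% ± 26.2 in BCS8 (SD, n = 6 each), a difference of 20.3 points. The 6 BCS8 values include the drought libraries by which EDTS5 was chosen, so this is a description as well, and the control shares of the accessions overlapped. On leaving out 1 library the difference ranged from 11.8 points, without BCS8 drought replicate 1, to 24.7 points.

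The table holds 1 other gene with orthology number K10206, HORVU4Hr1G054920, on chromosome 4H from 460076141 to 460079729 on the minus strand. The pair lies far apart on the same chromosome. Its FPKM was 27.2, 25.4 and 26.2 in BCS8 control, 23.8, 22.3 and 26.3 in BCS8 drought, 20.7, 12.1 and 13.6 in BCS24 control and 20.1, 21.8 and 19.1 in BCS24 drought. EDTS5 had 1.63, 2.14 and 3.44 FPKM in BCS8 control, 47.2, 41.2 and 7.67 in BCS8 drought, 1.45, 1.09 and 1.51 in BCS24 control and 1.19, 1.29 and 1.27 in BCS24 drought.

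Set per length, HORVU4Hr1G054920 was thus the more abundant of the pair in 10 of the 12 libraries, and EDTS5 exceeded it only in BCS8 drought replicates 1 and 2. The ratio of EDTS5 to HORVU4Hr1G054920 was 1.99, 1.85 and 0.291 in BCS8 drought, and between 0.0589 and 0.131 in the other groups. Whether the authors' counting could have moved reads between the 2 genes was not tested.

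**Figure D3:**
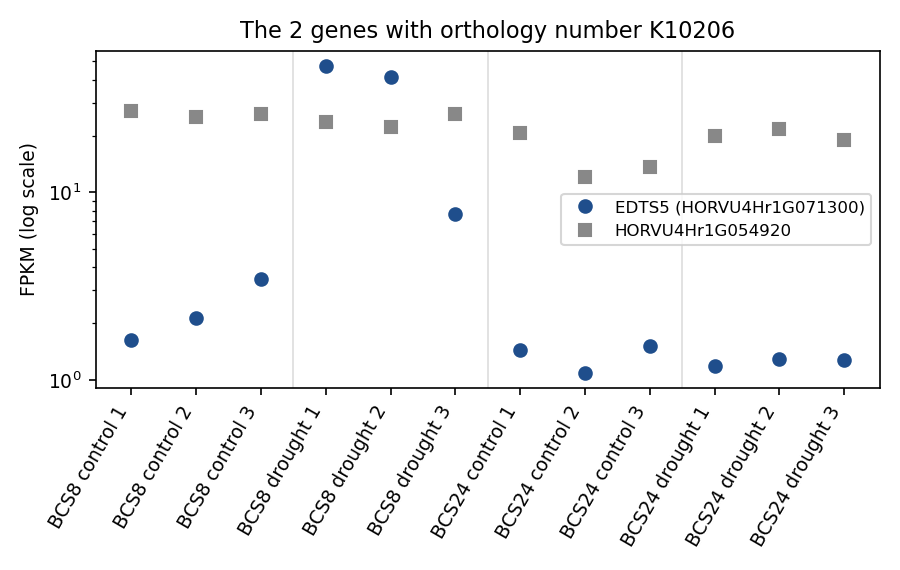
FPKM of EDTS5 (circles) and of HORVU4Hr1G054920 (squares), the 2 genes with orthology number K10206, in each of the 12 libraries on a log axis. The squares stay between 12.1 and 27.2 FPKM, and the circles pass above them in BCS8 drought replicates 1 and 2, at 47.2 and 41.2 FPKM.

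In the drought comparisons HORVU4Hr1G054920 did not pass the test in either accession. Its log2 difference was -0.08 ± 0.18 in BCS8 (edgeR, adjusted p = 0.864, 95% interval -0.47 to 0.31) and 0.52 ± 0.18 in BCS24 (edgeR, adjusted p = 0.136, 95% interval 0.13 to 0.91). Without BCS24 control replicate 1, whose level was the highest of its group, the BCS24 value was 0.78 with an adjusted p of 0.0216 (edgeR). In control leaves the gene was lower in BCS24 than in BCS8 (log2 -0.78 ± 0.18, edgeR, adjusted p = 0.0144), a call that ended without BCS24 control replicate 2 (adjusted p = 0.0535) or 3 (0.0656). Under drought the accessions differed by -0.18 ± 0.18 (edgeR, adjusted p = 0.47).

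The other genes of lysine synthesis from aspartate numbered 27 in the table by orthology, HORVU4Hr1G054920 included, and 21 of them were abundant enough to be tested. With EDTS5 left out, 0 of the 21 passed the edgeR test under drought in BCS8 and 0 in BCS24, beside 1.53% and 2.65% of all genes tested. For a list this short, 0 calls lies near those shares. Their median log2 difference was -0.04 in BCS8, beside 0.02 over all genes tested, and 0.1 in BCS24, beside 0 over all genes. The values ranged from -0.62 to 1.85 in BCS8 and from -1 to 1.16 in BCS24.

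At the head of the route, aspartate kinase (K00928) and the bifunctional aspartate kinase and homoserine dehydrogenase (K12524) phosphorylate aspartate. The K12524 gene HORVU5Hr1G053950 was the most abundant of the list. It had 383, 218 and 271 FPKM in BCS8 control, 261, 154 and 137 in BCS8 drought, 359, 564 and 528 in BCS24 control and 439, 449 and 314 in BCS24 drought. Its drought differences were -0.62 ± 0.29 in BCS8 and -0.15 ± 0.29 in BCS24 on the log2 scale, and neither passed (edgeR, adjusted p = 0.329 and 0.827).

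The next enzyme, aspartate-semialdehyde dehydrogenase (K00133), makes the branch point to lysine, threonine and methionine. Its gene HORVU3Hr1G096280 had 6.93, 4.32 and 8.06 FPKM in BCS8 control and 24.8, 35.6 and 7.86 in BCS8 drought. In BCS24 it had 0.438, 1.1 and 2.27 FPKM in control and 0.994, 0.455 and 0.9 under drought. As with EDTS5, BCS8 drought replicates 1 and 2 were high. Replicate 3 of this gene lay within its control range, whereas for EDTS5 replicate 3 stood above the control range.

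The drought difference of HORVU3Hr1G096280 was 1.85 ± 0.62 on the log2 scale in BCS8 (edgeR, adjusted p = 0.17) and -0.56 ± 0.63 in BCS24 (adjusted p = 0.672), and neither passed. With DESeq2 the BCS8 difference passed (adjusted p = 0.0315). The gene was lower in BCS24 than in BCS8 under drought (log2 -4.76 ± 0.71, edgeR, adjusted p = 0.00141). In control it was lower in BCS24 as well (log2 -2.35 ± 0.64, adjusted p = 0.0293), but that call ended without BCS8 control replicate 1 or 3 or BCS24 control replicate 1 or 2, at an adjusted p of 0.0596 to 0.107 (edgeR). With the replicate number as a block, its adjusted p in control was 0.0502. A second K00133 gene, HORVU3Hr1G096290, had a log2 difference of -0.41 ± 0.15 in BCS8 and -0.4 ± 0.15 in BCS24 under drought, and neither passed (edgeR, adjusted p = 0.225 and 0.179). A further K00133 gene, HORVU5Hr1G097020, had 0.59 ± 0.31 in BCS8 and 1.16 ± 0.31 in BCS24 (edgeR, adjusted p = 0.367 and 0.0718). In BCS24 its control (11.5, 5.39 and 6.58 FPKM) and drought levels (15.1, 12.5 and 20.4) did not overlap. The BCS24 difference passed with DESeq2 (adjusted p = 0.00669) and without BCS24 control replicate 1 (edgeR, 0.0351).

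The steps committed to lysine follow. The 4 tested genes of dihydrodipicolinate synthase (K01714), which opens that branch, had log2 drought differences from -0.13 to 0.01 in BCS8 and from -0.43 to 0.1 in BCS24. The 3 genes with the number of dihydrodipicolinate reductase (K00215), 1 of which (HORVU4Hr1G073960) carries other numbers too, ranged from -0.35 to 0.04 in BCS8 and from -0.15 to 0.27 in BCS24. For diaminopimelate decarboxylase (K01586), which releases lysine in the last step, HORVU6Hr1G022170 showed 0.05 ± 0.12 and 0.32 ± 0.12, and HORVU6Hr1G022220 showed -0.44 ± 0.28 and 0.24 ± 0.28. None of these genes passed in either accession. The orthology number of diaminopimelate epimerase, which acts directly after the aminotransferase, was among those that made the list. No gene with that number is described singly here.

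**Figure D4:**
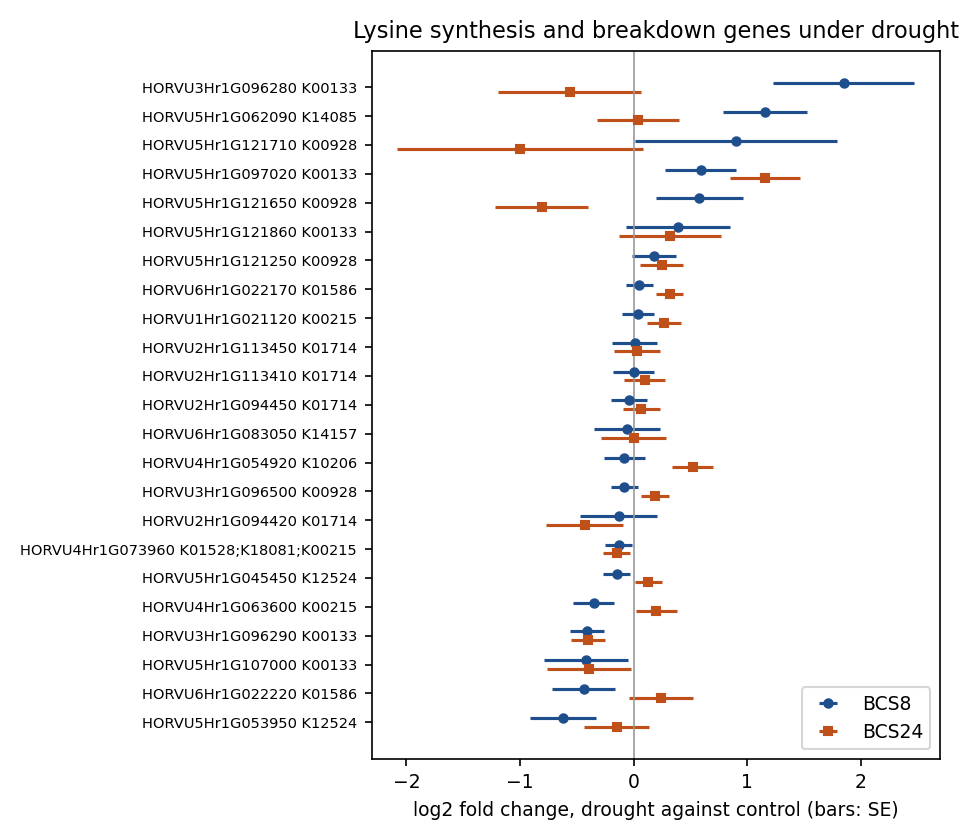
Log2 fold change of drought against control for the 21 tested genes of lysine synthesis other than EDTS5 and the 2 tested genes of lysine breakdown, in BCS8 (circles) and BCS24 (squares), with the SE of the edgeR fit as bars and the orthology number beside each gene. No point passed the edgeR threshold, and the highest value was 1.85 for HORVU3Hr1G096280 in BCS8.

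Between the accessions the list moved in both directions. In control, 1 of the 21 was higher and 4 were lower in BCS24, beside 9.98% and 9.15% of all genes tested. Under drought 5 were higher and 3 lower, beside 13.3% and 14.1%. The shares of the list were thus of the order of the background, with medians of -0.1 and 0.01.

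Lysine breakdown was represented by 5 genes, of which 2 were tested. Under drought 0 passed in either accession, beside 1.53% of all genes tested in BCS8 and 2.65% in BCS24. HORVU6Hr1G083050 (K14157) encodes the bifunctional enzyme that begins the saccharopine route and showed log2 drought differences of -0.06 ± 0.29 in BCS8 and 0 ± 0.29 in BCS24. HORVU5Hr1G062090 (K14085), named ALDH7B4 after its Arabidopsis counterpart, oxidises aminoadipate semialdehyde in that route. It had 24.3, 21.8 and 18.6 FPKM in BCS8 control and 76.3, 34.1 and 29.4 in BCS8 drought, with no overlap between the groups, and 13.5, 20.6 and 14.5 against 17.2, 19.5 and 9.28 in BCS24, which overlapped. Its log2 differences were 1.16 ± 0.37 (edgeR, adjusted p = 0.154) and 0.04 ± 0.36 (adjusted p = 0.973). With DESeq2 the BCS8 difference passed (adjusted p = 0.0306).

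SARD4 in Arabidopsis acts after ALD1 in making pipecolic acid, and HORVU1Hr1G049490 carries its name by projection. This gene was looked up after the values had been seen. It had 8.4, 11.4 and 10.5 FPKM in BCS8 control, 11.7, 19.7 and 9.4 in BCS8 drought, 5.42, 4.66 and 5.03 in BCS24 control and 6.5, 8.82 and 5.76 in BCS24 drought. The groups overlapped in BCS8 and did not in BCS24, and the log2 differences under drought were 0.46 ± 0.25 and 0.6 ± 0.25 (edgeR, adjusted p = 0.393 and 0.211).

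Other aminotransferases, taken by their annotation and without the K10206 genes, numbered 26, with 23 tested. Under drought 0 were higher and 1 was lower in BCS8, where 0.536% of all genes tested were lower, and 0 passed in BCS24, where 2.65% of all genes did. The one that fell was HORVU5Hr1G067880 (K00816, kynurenine and glutamine transaminase), with 86.6, 82 and 89.7 FPKM in control and 46.8, 42.5 and 57.5 under drought, which did not overlap. Its log2 difference was -0.77 ± 0.16 (edgeR, adjusted p = 0.0499). That call ended on leaving out any library but BCS8 drought replicate 3 or BCS24 control replicate 1, with an adjusted p of 0.0586 to 0.178. It ended too with the replicate number as a block (0.0699), with no filter on low values (0.069) and with only the libraries compared (0.145).

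Genes annotated to systemic acquired resistance as such, a term EDTS5 does not carry, numbered 24, with 18 tested. In BCS8 0 passed under drought, beside 1.53% of all genes tested, and their median log2 difference was 0.41 beside 0.02 over all genes. In BCS24 1 was higher and 0 lower, beside 1.4% and 1.25% of all genes tested, and the median was -0.35 beside 0. The gene that rose in BCS24 was HORVU2Hr1G120530, for which the table gives no description, from 7.13, 4.79 and 5.88 FPKM to 25.4, 11.3 and 24.2 (log2 1.9 ± 0.39, edgeR, adjusted p = 0.0372). The call ended without BCS8 control replicate 1, any BCS24 control replicate, or BCS24 drought replicate 1 or 3 (adjusted p = 0.0503 to 0.163), and with the replicate number as a block (0.0588).

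Salicylic acid is the hormone most tied to that defence state. The list of its regulators and markers (NPR1, EDS1, TGA factors, isochorismate synthase and PR1) held 42 genes, with 25 tested. In BCS8 0 passed under drought, beside 1.53% of all genes tested, and in BCS24 1 was lower, beside 1.25%. A narrower annotation, salicylic acid signalling in systemic acquired resistance, was added after the data were seen and includes EDTS5 itself. Of its other 14 genes 10 were tested. Under drought 0 passed in either accession, beside 1.53% of all genes tested in BCS8 and 2.65% in BCS24. Their medians were -0.07 in BCS8 and -0.21 in BCS24, beside 0.02 and 0 over all genes.

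PR1, a secreted protein widely used as a mark of salicylic acid signalling, is encoded by 10 genes in the table (K13449), of which 6 were tested. Their summed level was 1540, 360 and 2030 CPM in BCS8 control, 2550, 11800 and 697 in BCS8 drought, 30, 99.6 and 785 in BCS24 control and 70.9, 19.9 and 23.6 in BCS24 drought. Within BCS8 the groups overlapped, and drought replicate 3, the lowest of its group in EDTS5, was also the lowest of its group in PR1. PR1 was highest in drought replicate 2 and EDTS5 in replicate 1, so the order differed at the top. In BCS24 the groups overlapped as well, and control replicate 3, at 785 CPM, stood far above the other libraries.

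Under drought 0 of the 6 PR1 genes passed in BCS8, beside 1.53% of all genes tested, with a median log2 difference of 1.88 beside 0.02. In BCS24 1 was lower, beside 1.25% of all genes tested, with a median of -2.94 beside 0. The one that fell was HORVU7Hr1G040730, from 4.95, 5.11 and 5.43 FPKM to 0.735, 0.441 and 0.879 (log2 -2.77 ± 0.6, edgeR, adjusted p = 0.0439). The groups did not overlap, but the call ended on leaving out any of the 6 BCS24 libraries, BCS8 control replicate 1 or 3 or BCS8 drought replicate 1 (adjusted p = 0.0536 to 0.163), with the replicate number as a block (0.0764) and with no filter on low values (0.0648). Between the accessions under drought, 1 PR1 gene was higher and 5 were lower in BCS24, beside 13.3% and 14.1% of all genes tested. HORVU7Hr1G040730 was the higher one, by 1.85 ± 0.62 on the log2 scale (edgeR, adjusted p = 0.048), a call that ended on leaving out any library but replicate 2 of BCS8 control, BCS8 drought or BCS24 drought (adjusted p = 0.0531 to 0.119), with the replicate number as a block (0.0857), with no filter (0.0636) and with only the libraries compared (0.14). In control it was also higher in BCS24, by 4.18 ± 0.65 (edgeR, adjusted p = 0.00197). The other 5 PR1 genes were lower in BCS24 than in BCS8 under drought, with log2 differences from -7.37 to -6.71 (edgeR, adjusted p = 0.00719 to 0.0168). Of these, HORVU5Hr1G055950 and HORVU5Hr1G056040 lost the call without BCS24 drought replicate 3 (adjusted p = 0.0593 and 0.0509).

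Genes annotated to leaf senescence, the ordered breakdown of an ageing leaf, numbered 92, with 76 tested. In BCS8 2 were higher and 1 was lower under drought, beside 0.998% and 0.536% of all genes tested. In BCS24 1 was higher and 2 were lower, beside 1.4% and 1.25%. Their medians were 0.08 and -0.03, near those of all genes. HORVU3Hr1G059170, a protein phosphatase 2C of abscisic acid signalling (K14497), had 0.802, 1.28 and 0.658 FPKM in BCS8 control and 6.31, 3.63 and 4.51 under drought (log2 2.44 ± 0.41, edgeR, adjusted p = 0.0262). HORVU2Hr1G017400 (K13126, a poly(A)-binding protein) rose by 1.12 ± 0.2 (adjusted p = 0.0276, edgeR). Both calls ended without BCS8 control replicate 1 or 3, BCS8 drought replicate 1 or BCS24 control replicate 3 (adjusted p from 0.0522 to 0.139), and with only the libraries compared (0.0737 and 0.134). HORVU3Hr1G059170 was higher under drought in BCS24 too. It did not pass there in the edgeR fit over all libraries but passed in 2 of 19 other settings (DESeq2, log2 1.59, adjusted p = 0.0024). Its drought effects differed by -0.85 ± 0.55 (edgeR, adjusted p = 0.575).

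The senescence gene that fell in BCS8 was HORVU3Hr1G094870, a histidine kinase of the cytokinin receptor group (K14489), with a log2 difference of -0.74 ± 0.14 (edgeR, adjusted p = 0.039). Leaving out any 1 of 8 libraries ended that call, the exceptions being BCS8 control replicate 2, BCS8 drought replicate 3 and BCS24 drought replicates 2 and 3, and so did a fit of only the libraries compared (adjusted p = 0.169). HORVU3Hr1G094870 was lower under drought in BCS24 too. It did not pass there in the edgeR fit over all libraries but passed in 7 of 19 other settings (DESeq2, log2 -0.61, adjusted p = 0.0031). Its drought effects differed by 0.13 ± 0.2 between the accessions (edgeR, adjusted p = 0.861). In BCS24 HORVU3Hr1G019510 rose by 0.96 ± 0.2 (edgeR, adjusted p = 0.0413), HORVU5Hr1G077010 fell by 2.24 (SE 0.42, adjusted p = 0.0304) and the NAC transcription factor gene HORVU7Hr1G055080 fell by 1.12 (SE 0.24, adjusted p = 0.0455). On leaving out 1 library these calls ended for 8, 5 and 9 of the 12 libraries, with adjusted p-values up to 0.178, 0.112 and 0.178. Among these were BCS8 control replicate 1, BCS24 control replicates 2 and 3 and BCS24 drought replicates 1 and 2 for each of the 3 genes. The call of HORVU3Hr1G019510 also ended with no filter on low values (0.0575) and that of HORVU5Hr1G077010 with only the libraries compared (0.0711). That of HORVU7Hr1G055080 ended with no filter (0.0676), with only the libraries compared (0.0842) and with the replicate number as a block (0.0685).

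Genes whose log2 CPM over the 12 libraries was most like that of EDTS5 were named by Pearson's r, among tested genes with a mean of at least 1 FPKM. The first 6 were HORVU2Hr1G120850 (r = 0.98), HORVU1Hr1G070580 (0.96), HORVU3Hr1G089290 (0.96), HORVU1Hr1G053770 (0.96), HORVU5Hr1G117910 (0.95) and HORVU6Hr1G038250 (0.94). The 12 points share the 4 groups and the same libraries and depths, and the r describes likeness only. Left without BCS8 drought replicate 3, the values were 0.94 to 0.98.

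HORVU1Hr1G053770 is annotated as trehalose 6-phosphate phosphatase, which makes the sugar trehalose, and HORVU5Hr1G117910 as ferredoxin, an electron carrier of the chloroplast. The deposited annotation gives no description for the other 4. HORVU3Hr1G089290 was the most abundant, with 10.8, 13.1 and 18.1 FPKM in BCS8 control, 51.8, 88.4 and 27.2 in BCS8 drought, 11.8, 11.1 and 11.4 in BCS24 control and 15.1, 13.7 and 13 in BCS24 drought. HORVU1Hr1G053770 had 1.72, 1.7 and 2.06 FPKM in BCS8 control, 9.47, 5.13 and 3.72 in BCS8 drought and 1.19 to 1.76 in the BCS24 libraries. In each of the 6 genes, BCS8 drought replicate 3 was the lowest of its group, as in EDTS5.

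**Figure D5:**
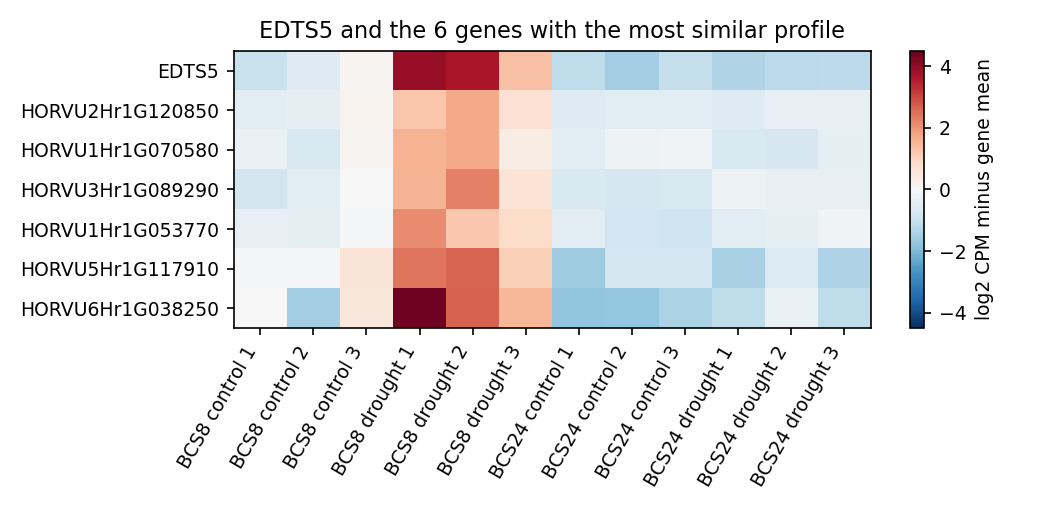
Log2 CPM minus the gene's own mean, by color, for EDTS5 and the 6 genes with the highest r to it, in each of the 12 libraries. The BCS8 drought columns are the highest in each gene, and for EDTS5 they stand at 3.93, 3.68 and 1.33 above its mean.

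When the group means were removed first, other genes came out. HORVU7Hr1G056310 led with r = 0.96 over the 12 deviations, followed by HORVU6Hr1G092150, HORVU2Hr1G090070 and HORVU7Hr1G115230 at 0.95 and HORVU7Hr1G053680 and HORVU5Hr1G110900 at 0.94. These values rest in large part on BCS8 drought replicate 3, which alone held 55.3% of the squared deviations of EDTS5. HORVU5Hr1G110900, a calcium-dependent protein kinase (K13412), was also alike over the libraries as they stood (r = 0.91), with 11.3, 10.6 and 16 FPKM in BCS8 control, 32.9, 31.4 and 13.2 in BCS8 drought and 10.7 to 14 in BCS24. HORVU7Hr1G056310 was listed at 0 FPKM in each BCS24 library and had 5.42 to 15 FPKM in BCS8.

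On the chromosome, no annotated gene overlapped EDTS5. The nearest on the side of lower coordinates was HORVU4Hr1G071270, an RNA cytidine acetyltransferase gene 5814 bases away, at 5.04 to 7.06 FPKM. Its log2 drought differences were 0.11 ± 0.12 in BCS8 and 0.2 ± 0.12 in BCS24 (edgeR, adjusted p = 0.696 and 0.363). On the other side HORVU4Hr1G071310 lay 2646 bases away and was too low to be tested, at 0 to 0.0178 FPKM. In BCS8 the levels of HORVU4Hr1G071270 overlapped between control (6.29, 5.16 and 5.04 FPKM) and drought (5.47, 6.52 and 5.22 FPKM).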

How the data were processed

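Per the labels' protocols, poly(A) RNA from leaves was made into strand-marked libraries and sequenced in pairs. The submitters' processing notes name StringTie 2.1.6, DESeq2 and edgeR. The sources used here name no aligner, build or annotation. The deposited tables give whole-number counts and FPKM values computed by the authors for each gene and transcript, with 49553836 to 61212440 counts per library. EDTS5 and the gene lists were chosen with earlier results of these data known.

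Counts were tested with edgeR 4.0.16 in R 4.3.3 (TMM scaling, quasi-likelihood F test, 1 coefficient per group over all 12 libraries, 8 residual degrees of freedom) on the 17342 of 30157 genes that reached 1 FPKM in 3 or more libraries. Benjamini-Hochberg adjustment ran over these genes, and the threshold was 0.05. Standard errors are the log2 difference divided by the root of F. Transcript shares were compared by exact permutation (scipy 1.17.1). The test was checked on simulated counts with known changes. Genes were named by rule: EDTS5, the tested K10206, lysine synthesis and breakdown genes, up to 3 called genes per direction of each other list, the 6 genes most alike by each r, and the neighbours; PR1 genes and HORVU1Hr1G049490 were added afterwards.

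Alternatives were DESeq2 1.42.0, limma 3.58.1 on log2(FPKM + 1) and log2(FPKM + 0.1), RLE scaling, no filter, only the libraries compared, a replicate block and each library left out. The labels state no pairing. Deviations from the group means of same-numbered libraries correlated above 0.1 in every pair only between BCS8 drought and BCS24 drought (0.143, 0.267 and 0.185). Over all pairs of groups the correlations ran from -0.418 to 0.267, so they do not establish a pairing. The block entered the fit over all 4 groups at once, not for the drought libraries alone. With it, EDTS5 moved from -4.6 to -4.57 between the accessions under drought. Sequences and promoters were not analysed here.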

Additional observations from a re-analysis of the deposited data

Results flagged for a closer look

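In 3 of the genes named, every drought library lay above every control library in BCS8 and below every control library in BCS24, by FPKM. The share of all genes with this pattern was not computed, so the count has no background to be read against. HORVU2Hr1G017400 and HORVU7Hr1G055080 were named because they passed in a drought comparison, so part of the pattern came with the choice. The test of the difference between the drought effects did not pass for any of the 3, and over the 17342 genes tested 0 differences of drought effects passed the edgeR threshold (2166 at an unadjusted p under 0.05, 629 past the threshold with DESeq2). HORVU2Hr1G017400, a poly(A)-binding protein gene, had log2 drought differences of 1.12 in BCS8 and -0.62 in BCS24, and the difference of effects was -1.74 ± 0.28 (edgeR, adjusted p = 0.126). HORVU7Hr1G055080, a NAC transcription factor gene, had 0.47 and -1.12, a difference of -1.58 ± 0.34 (edgeR, adjusted p = 0.196). HORVU1Hr1G070580, 1 of the 6 genes most alike to EDTS5 and chosen for that likeness, had 1.58 and -0.33, a difference of -1.91 ± 0.47 (edgeR, adjusted p = 0.225). Its edgeR call in BCS8 drought ended in 16 of 19 other settings.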

How the results depend on the processing

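The direction of EDTS5 in BCS8 drought (2.97 to 4.22 on the log2 scale over 19 alternatives), between the accessions in control (-1.08 to -0.47) and under drought (-5.06 to -3.53), and of the difference of effects (-4.21 to -3.03, 18 alternatives) held in each alternative run. The drought value between accessions moved beyond its spread only with limma on log2(FPKM + 1), to -3.53. EDTS5 in BCS24 stayed uncalled in all 19, but its sign turned with limma on log2(FPKM + 1) (-0.06) and log2(FPKM + 0.1) (-0.09), and it lay between -0.12 and 0.1 without 1 library. The BCS24 share difference between drought and control ranged from -1.68 to 1.33 points without 1 library, and the share difference between accessions from 11.8 to 24.7 points. The lists held 152 tested genes other than EDTS5. Of these, 4 were called in BCS8 drought, 5 in BCS24 drought, 31 between accessions in control and 65 under drought. Over all genes tested the shares were 1.53%, 2.65%, 19.1% and 27.4%. The 4 in BCS8 drought were 12 with DESeq2, 0 with only the libraries compared and 0 to 4 without 1 library. The 5 in BCS24 drought were 17 with DESeq2, 2 with no filter, 3 with the replicate block and 0 to 7 without 1 library. The 31 between accessions in control were 15 to 35 without 1 library. The 65 under drought were 33 with only the libraries compared and 29 to 61 without 1 library. The replicate block gave EDTS5 3.71 in BCS8 drought and 0.01 in BCS24 drought. Over all genes, calls in BCS8 drought numbered 266, but 2 with only the libraries compared, 151 with no filter, 156 with the block, 438 with limma on log2(FPKM + 1), 1182 with DESeq2 and 0 to 320 without 1 library. Calls in BCS24 drought numbered 460, but 241 with no filter, 305 with the block, 766 and 751 with limma, 1803 with DESeq2 and 19 to 674 without 1 library. Calls between accessions numbered 3317 in control (1402 to 3792 without 1 library) and 4749 under drought (1855 with only the libraries compared, 2036 to 5192 without 1 library). For the difference of effects, 0 to 31 genes passed without 1 library. The cause of these moves was not tested. Changes of EDTS5 in BCS24 within the interval of each fit, and transcripts below the share that a count of 0 allows, could not be seen.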
